A study of Homo sapiens with 20 samples.

Results

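The actin isoforms and contractile genes are a set of 10 genes among the 24196 listed by symbol. They comprise the 6 human actin genes, ACTB, ACTG1, ACTA1, ACTA2, ACTC1 and ACTG2, and 4 genes of contractile proteins, TAGLN, CNN1, MYL9 and TPM1. The members were picked by gene symbol, with FPKM values of these libraries in view, so their values are given as a description and no p is given for them. The libraries came from 8 orthotopic tumors of OVCAR8, a human ovarian carcinoma cell line, grown at the ovary of NSG mice that were 6 weeks old at injection into the fat pad. NSG mice are immunodeficient hosts that lack T, B and NK cells but keep their own fibroblasts, vessels and muscle. These host cells are mouse cells, whereas the values of the libraries are on the human build GRCh38. How fragments of mouse RNA were treated is not given in the sources used here. The hosts of 4 tumors received PBS and those of the other 4 received sodium gluconate at 1 mg/kg, by intraperitoneal injection once a week for 35 days, and the comparison asks which genes differed after gluconate. FPKM scales the fragments counted for a gene by its length in kilobases and by the depth of the library. The labels give each tumor as a sample of its own, and every spread below is the spread between tumors.

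PBS replicate 4 stood apart from the other libraries before any comparison. The fragments behind the FPKM values numbered 45605414, 46551535, 39895393 and 3953206 in PBS replicates 1, 2, 3 and 4, and between 39325749 and 42786196 in the 4 gluconate tumors. PBS replicate 4 was thus 9.95 to 11.8 times shallower than the rest. It had 15514 genes above 0, against 19991 to 20251 in the other 7 tumors. Its Pearson's r with the other libraries was 0.938 to 0.951 on log2(FPKM + 0.1), across the 12486 genes that averaged 0.5 FPKM or more, while all other pairs had 0.980 to 0.994. Genes are not independent replicates, so these r values describe the libraries only. Results are therefore given with and without this tumor. In bulk tumor RNA, fewer cells of a type and less RNA per cell cannot be told apart.

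Actin polymerizes into the filaments that carry cell shape, migration and contraction. ACTB and ACTG1 encode the cytoplasmic actins of nearly all cells, whereas ACTA1, ACTC1, ACTA2 and ACTG2 encode the skeletal, cardiac, vascular smooth muscle and enteric smooth muscle isoforms. TAGLN (transgelin, or SM22) and CNN1 (calponin) bind actin filaments in smooth muscle, MYL9 is a regulatory light chain of smooth muscle and non-muscle myosin II, and TPM1 encodes tropomyosins that lie along the filament. Many genes of this set are classical targets of serum response factor (SRF), which binds the CArG box and is activated through MRTF co-activators that sense free actin monomers. In carcinomas, ACTA2 and TAGLN are widely used as markers of myofibroblasts and pericytes, although epithelial tumor cells can express them. Actin was also a loading control in several of the study's western blots, and primers for ACTB are among those listed for RT-qPCR.

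The coding sequences of the 6 actins are so alike that it matters whether the measurements can separate them. In the transcripts of GENCODE 29 on GRCh38, the 15 pairs of coding sequences were 81.8% to 91.3% identical, and the closest pair was ACTB and ACTG1. The libraries were read as pairs of 150 bases. For all 10 members, 0 stretches of 150 bases of the principal transcript occurred without a mismatch in a transcript of another gene. Among stretches of 50 bases, 10.3% of those of ACTB, 3.58% of those of ACTG1 and 1.87% of those of ACTA1 occurred elsewhere, mostly in actin pseudogenes and POTE genes. How the authors' counting treated such fragments is not given in the sources used here. Transcripts of the mouse host were not searched.

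The primers that the study lists for ACTB show the same likeness on a small scale. They are shown beside the matching site of each muscle actin, all read 5′ to 3′ on the strand of the primer, with bases that differ from the primer in capitals. Sites come from the GENCODE 29 transcripts.
forward primer: caccattggcaatgagcggttc
ACTC1 forward site: cacTattggcaatgagcgCttc
ACTA2 forward site: caccatCggAaatgaAcgTttc
ACTA1 forward site: caccatCggcaaCgagcgCttc
ACTG2 forward site: caccattggcaatgagcgCttc
reverse primer: aggtctttgcggatgtccacgt
ACTC1 reverse site: aggtcCttgcggatAtcAaTgt
ACTA2 reverse site: aggtcCttCcTgatgtcAaTAt
ACTA1 reverse site: aggtcCttCcTgatgtcGaTgt
ACTG2 reverse site: aAgtcCttAcggatgtcAaTgt
Both primers matched ACTB and ACTG1 without a mismatch, in 7 and 11 transcripts, and matched no transcript of any other gene in full. In both genes the product spans 135 bases, from coding base 744 to 878. In ACTB it reaches from exon 4 to exon 5 of 6 (chr7:5528110-5528339, minus strand), and in ACTG1 from exon 3 to exon 4 of 5 (chr17:81511033-81511246, minus strand). The muscle actins differed from the forward primer at 1 to 4 bases and from the reverse primer at 4 to 6 bases. Counted from the 5′ end of the primer, ACTG2 differed from the forward primer only by G19C, a change that ACTC1 and ACTA1 share, and C20T in the reverse primer was common to all 4 muscle actins. What amplification such sites would give was not measured. In these libraries, ACTG1 had 1 FPKM for every 1.59 to 2.04 FPKM of ACTB.

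The cytoplasmic actins were among the most abundant genes of the tumors. ACTB (chr7:5527147-5563784, minus strand) ranked at 11 and ACTG1 (chr17:81509971-81523847, minus strand) at 26 of the 24196 genes by mean FPKM. ACTB was at 2990, 3123, 2819 and 2953 FPKM in PBS replicates 1, 2, 3 and 4 and at 3003, 2838, 3152 and 3490 FPKM in gluconate replicates 1, 2, 3 and 4. Its highest value was in gluconate replicate 4, and the ranges of the groups overlapped. The group means were 2971 ± 125 FPKM (SD, n = 4) in PBS and 3121 ± 277 FPKM (SD, n = 4) in gluconate tumors. On the log2(FPKM + 0.1) scale the difference, gluconate minus PBS, was 0.07 (standard error 0.08), and it was also 0.07 (standard error 0.09) without PBS replicate 4. It was 0.01 without gluconate replicate 4, 0.11 without gluconate replicate 2 and 0.00 with median-ratio scaling.

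ACTG1 was at 1681, 1783, 1773 and 1569 FPKM in PBS replicates 1, 2, 3 and 4 and at 1744, 1583, 1742 and 1714 FPKM in gluconate replicates 1, 2, 3 and 4. PBS replicate 4 and gluconate replicate 2 were the lowest, and the other 6 tumors lay within a narrow band from 1681 to 1783 FPKM. The group means were 1702 ± 99.5 FPKM (SD, n = 4) in PBS and 1696 ± 76.3 FPKM (SD, n = 4) in gluconate tumors. The log2 difference was -0.00 (standard error 0.07) with all tumors and -0.04 (standard error 0.07) without PBS replicate 4. For both cytoplasmic actins, the difference between the groups was no larger than its standard error.

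**Figure D1:**
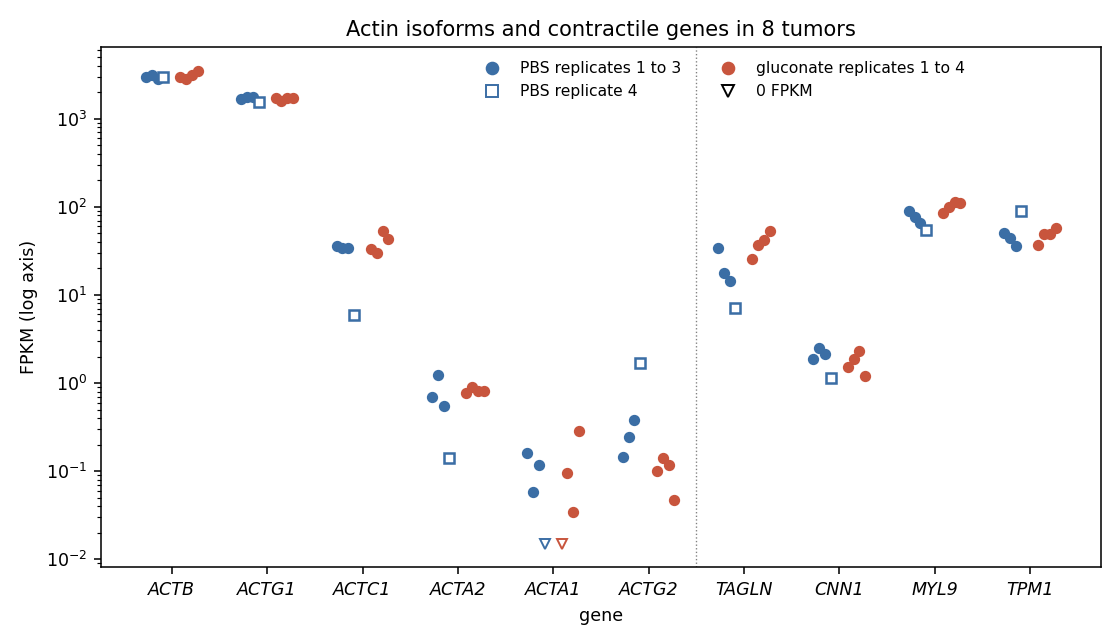
FPKM of the 6 actin genes and, right of the dotted line, the 4 contractile genes in each tumor, on a log axis, with PBS in blue, gluconate in red, PBS replicate 4 as an open square and values of 0 as triangles. ACTB and ACTG1 lie far above the other members in every tumor, ACTA1 stays at or below 0.282 FPKM, and PBS replicate 4 lies far from the other PBS tumors for ACTC1 and ACTG2.

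ACTC1, the cardiac isoform, was the main muscle actin of the tumors. It lies at chr15:34788095-34795726 on the minus strand and was at 35.7, 33.9, 33.8 and 5.86 FPKM in PBS replicates 1, 2, 3 and 4. In gluconate replicates 1, 2, 3 and 4 it was at 33.4, 30.1, 53.7 and 43.5 FPKM. The first 3 PBS tumors were nearly equal, gluconate replicates 3 and 4 were above every PBS tumor, and gluconate replicates 1 and 2 were below PBS replicates 1 to 3. PBS replicate 4 had 32 fragments of ACTC1 and was 5.79 times lower than the median of the other 7 tumors. The mean was 27.3 ± 14.3 FPKM (SD, n = 4) in PBS tumors, or 34.5 ± 1.06 FPKM (SD, n = 3) without replicate 4, and 40.2 ± 10.7 FPKM (SD, n = 4) in gluconate tumors. The log2 difference of 0.82 (standard error 0.53) became 0.18 (standard error 0.17) when PBS replicate 4 was left out.

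ACTA2, the vascular smooth muscle isoform that marks myofibroblasts, was near 1 FPKM or below in all but 1 tumor. It lies at chr10:88935074-88991339 on the minus strand and was at 0.691, 1.24, 0.555 and 0.140 FPKM in PBS replicates 1, 2, 3 and 4. Its FPKM in gluconate replicates 1, 2, 3 and 4 was 0.768, 0.892, 0.802 and 0.815. The gluconate tumors lay close together, inside the range of the PBS tumors, of which replicate 2 was the highest of all 8. PBS replicate 4 held a single fragment of ACTA2, with a 95% Poisson interval of 0.00354 to 0.780 FPKM whose upper bound lies above the values of PBS replicates 1 and 3 and gluconate replicate 1 and below those of the other 4 tumors. Such intervals cover counting error only. The log2 difference was 0.52 (standard error 0.45) with all tumors and 0.05 (standard error 0.23) without PBS replicate 4. ACTA2 overlaps STAMBPL1 and FAS on the opposite strand, and the strand of the counting is not given in the sources used here, so fragments of the shared stretches cannot be assigned. The same limit holds for TAGLN, which shares 446 bases with PCSK7, a gene at 4.97 FPKM on average. ACTB, ACTC1, ACTG1, MYL9 and TPM1 overlap antisense genes on the opposite strand.

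ACTG2, the enteric smooth muscle isoform (chr2:73892314-73919865, plus strand), was at 0.146, 0.243, 0.384 and 1.69 FPKM in PBS replicates 1, 2, 3 and 4. The gluconate tumors had 0.0991, 0.140, 0.119 and 0.0468 FPKM in replicates 1, 2, 3 and 4. All gluconate tumors were thus below all PBS tumors, but by a gap of less than 1 fragment between PBS replicate 1, with 10 fragments, and gluconate replicate 2, with 9. The fragments of ACTG2 pooled over PBS replicates 1 to 3 gave 0.252 FPKM (95% Poisson interval 0.187 to 0.333) and those of the gluconate tumors 0.101 FPKM (95% Poisson interval 0.0652 to 0.149). These intervals leave out the spread between tumors, so they do not compare the treatments. Fitted without a minimum mean FPKM, the log2 difference was -1.39 (standard error 0.57) with all tumors. Without PBS replicate 4 the difference of the means on this scale was -0.80. PBS replicate 4 was 12.0 times the median of the other 7 tumors, from 10 fragments (95% Poisson interval 0.808 to 3.10 FPKM). ACTG2 was the member with the largest upward departure in that tumor, in which ACTC1 was 5.79 times and ACTA2 5.73 times below the median of the others.

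ACTA1, the skeletal muscle isoform (chr1:229431245-229434098, minus strand), had the lowest level of the set. It was at 0.162, 0.0576, 0.118 and 0 FPKM in PBS replicates 1, 2, 3 and 4 and at 0, 0.0941, 0.0341 and 0.282 FPKM in gluconate replicates 1, 2, 3 and 4. Gluconate replicate 4, with 18 fragments, and PBS replicate 1, with 11, were the highest, so the high values fell in both groups. The absence of fragments allows up to 0.0613 FPKM in gluconate replicate 1 but 0.626 FPKM in the shallow PBS replicate 4, by the upper bound of the 95% Poisson interval.

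The summed FPKM of skeletal muscle genes was highest in the same tumors as ACTA1, through some of the genes and not through others. Of the 14 skeletal muscle markers listed, 12 were used, without MYOD1 and MYOG, which were not analysed here, and 0 of the 12 reached a mean FPKM of 0.5. Their summed FPKM was 2.43, 0.433, 0.464 and 0.0413 in PBS replicates 1, 2, 3 and 4 and 0.612, 0.487, 0.311 and 2.82 in gluconate replicates 1, 2, 3 and 4. PBS replicate 1 and gluconate replicate 4 thus stood well above the other 6 tumors. The myosin heavy chain genes MYH1, MYH4 and MYH7, named after their values were seen, had fragments in these tumors and in no other. PBS replicate 1 had 46, 41 and 30 fragments of the 3 genes and gluconate replicate 4 had 175, 29 and 71. TNNI2, a fast troponin and the most abundant gene of the list at 0.233 ± 0.152 FPKM (SD, n = 8), was instead highest in gluconate replicates 1 and 2, at 0.501 and 0.389 FPKM. Among others named after their values were seen, CKM, muscle creatine kinase, was at 0 in PBS replicate 1, and TNNT3 and MB were higher in PBS replicate 2 than in gluconate replicate 4. Of the 12 genes, 11 were at 0 in PBS replicate 4. The part of such RNA in the level of ACTA1 was not tested.

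**Figure D2:**
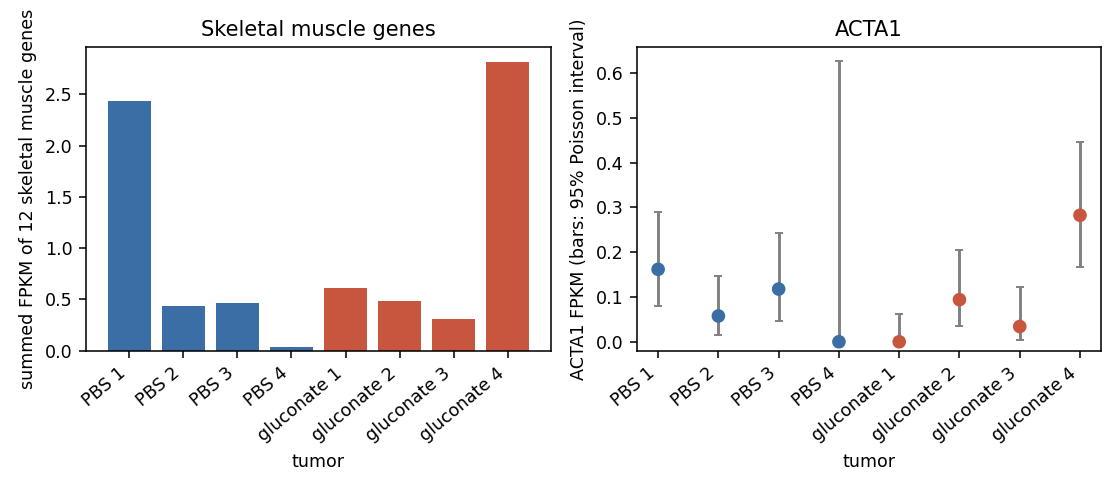
Left, summed FPKM of 12 skeletal muscle genes in each tumor, with PBS in blue and gluconate in red. Right, FPKM of ACTA1 with its 95% Poisson interval, which covers counting error only. PBS replicate 1 and gluconate replicate 4 are the highest in both panels, and the interval of PBS replicate 4 spans 0 to 0.626 FPKM.

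Seen as shares, the actin pool of the tumors was cytoplasmic. The FPKM of the 6 actin genes summed to between 4453 and 5248 in the 8 tumors, or 1.10% to 1.24% of the FPKM of all genes. ACTB made up 60.9% to 66.5% of this sum and ACTG1 32.7% to 38.3%. The 4 muscle actins together made up 0.701% to 1.10% in 7 tumors and 0.170% in PBS replicate 4. Within the muscle actins, ACTC1 held 95.7% to 98.3% in the 7 tumors and 76.2% in PBS replicate 4. The ratio of ACTB to ACTG1 was 1.75 ± 0.121 (SD, n = 4) in PBS and 1.84 ± 0.136 (SD, n = 4) in gluconate tumors, a difference within the spread. The ratio was lowest in PBS replicate 3, at 1.59, and highest in gluconate replicate 4, at 2.04.

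TAGLN, the transgelin gene, had the widest spread of FPKM between tumors, taken as SD over mean, of the members that averaged 0.5 FPKM or more. It lies at chr11:117199321-117204782 on the plus strand and was at 33.9, 17.7, 14.4 and 7.18 FPKM in PBS replicates 1, 2, 3 and 4. In gluconate replicates 1, 2, 3 and 4 it was at 25.6, 37.2, 41.9 and 53.5 FPKM. Gluconate replicates 2, 3 and 4 were above every PBS tumor, whereas gluconate replicate 1 was below PBS replicate 1, so the groups overlapped by this 1 pair. The mean was 18.3 ± 11.3 FPKM (SD, n = 4) in PBS tumors, 22.0 ± 10.4 FPKM (SD, n = 3) without replicate 4 and 39.5 ± 11.5 FPKM (SD, n = 4) in gluconate tumors. The log2 difference was 1.27 (standard error 0.41), or 2.41-fold, with all tumors and 0.89 (standard error 0.30), or 1.86-fold, without PBS replicate 4. Over the 7 tumors its coefficient of variation (SD over mean) was 43.1%, higher than that of 97.8% of the 12486 genes, whose median was 9.74%.

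MYL9, the regulatory light chain, had the same pattern at a higher level and with a smaller difference. It lies at chr20:36541484-36551447 on the plus strand and was at 90.7, 77.1, 66.4 and 54.2 FPKM in PBS replicates 1, 2, 3 and 4. Its FPKM in gluconate replicates 1, 2, 3 and 4 was 85.2, 101, 112 and 110. Again gluconate replicates 2, 3 and 4 were above every PBS tumor and gluconate replicate 1 was below PBS replicate 1. The means of MYL9 were 72.1 ± 15.5 FPKM (SD, n = 4) in PBS and 102 ± 12.4 FPKM (SD, n = 4) in gluconate tumors. The log2 difference was 0.52 (standard error 0.15), or 1.43-fold, and 0.39 (standard error 0.12), or 1.31-fold, without PBS replicate 4.

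TPM1, a tropomyosin gene (chr15:63042632-63071915, plus strand), was at 50.3, 44.8, 35.6 and 89.3 FPKM in PBS replicates 1, 2, 3 and 4. The gluconate tumors had 37.0, 49.0, 49.2 and 57.8 FPKM in replicates 1, 2, 3 and 4. PBS replicate 4 was the highest of all tumors, 1.82 times the median of the others, while TAGLN and MYL9 had their lowest value in that tumor. The log2 difference of TPM1 was -0.12 (standard error 0.25) with all tumors and turned to 0.14 (standard error 0.15) without PBS replicate 4, in both cases within its standard error.

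CNN1, the calponin gene (chr19:11538717-11550323, plus strand), was at 1.86, 2.53, 2.13 and 1.15 FPKM in PBS replicates 1, 2, 3 and 4. In gluconate replicates 1, 2, 3 and 4 it was at 1.52, 1.88, 2.30 and 1.20 FPKM. The lowest values were in PBS replicate 4, from 11 fragments, and in gluconate replicate 4, from 124 fragments, and the groups overlapped. Although CNN1 is a smooth muscle gene like TAGLN, it was low in the tumor where TAGLN was highest. Its log2 difference was -0.13 (standard error 0.26) with all tumors and -0.34 (standard error 0.20) without PBS replicate 4. Without PBS replicate 2 or without gluconate replicate 4, it was 0.01 and 0.02, so its direction turned with single tumors.

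**Figure D3:**
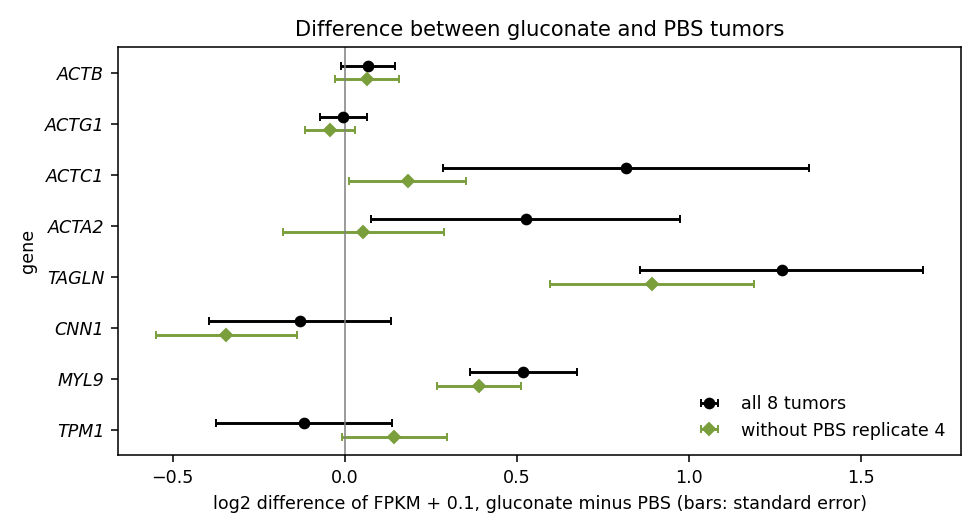
Difference in log2(FPKM + 0.1), gluconate minus PBS, for the 8 members that averaged 0.5 FPKM or more, with bars of 1 standard error, over all 8 tumors (black circles) and without PBS replicate 4 (green diamonds). TAGLN and MYL9 lie to the right of 0 in both, ACTC1 and ACTA2 move toward 0 without PBS replicate 4, and TPM1 changes side.

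The members did not rise and fall as a block across the tumors. Of the 45 pairs of members, 25 had a Pearson's r above 0 for log2(FPKM + 0.1) over the 7 tumors other than PBS replicate 4, and 3 pairs had r above 0.8. These were TAGLN with MYL9 (r = 0.97, rho = 0.96, n = 7), TAGLN with TPM1 (r = 0.84, rho = 0.86, n = 7) and MYL9 with TPM1 (r = 0.81, rho = 0.79, n = 7). When PBS replicate 4 was included, r was 0.98 for TAGLN with MYL9 but -0.31 and -0.27 for the pairs with TPM1. The lowest r was that of ACTG2 with TAGLN (r = -0.89, n = 7), a pair in which ACTG2 rests on 3 to 23 fragments per tumor. For ACTA2 with TAGLN, r was 0.08 and rho 0.32 over these 7 tumors, and r was 0.71 when PBS replicate 4 was included. The 7 tumors are of similar depth and fall into 2 treatment groups, so differences between the groups enter every r.

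**Figure D4:**
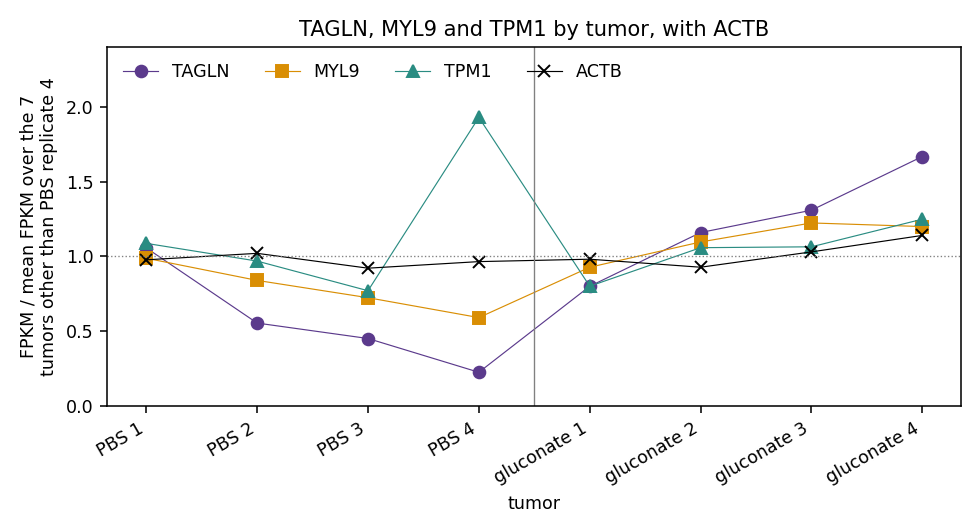
FPKM of TAGLN, MYL9, TPM1 and ACTB in each tumor, divided by the mean over the 7 tumors other than PBS replicate 4. TAGLN and MYL9 share their order across most tumors with a wider span for TAGLN, TPM1 departs from both in PBS replicate 4, and ACTB stays near 1.

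Human fibroblast and mural cell genes were examined beside TAGLN and ACTA2, since these members are used as markers of such cells. The summed FPKM of 12 fibroblast genes was 369, 438, 350 and 211 in PBS replicates 1, 2, 3 and 4 and 392, 461, 506 and 530 in gluconate replicates 1, 2, 3 and 4. As with TAGLN, gluconate replicates 2, 3 and 4 were above every PBS tumor and PBS replicate 4 was the lowest. SPARC, a matrix glycoprotein gene that carcinoma cells can also express, made up most of it at 248 ± 57.9 FPKM (SD, n = 8). COL1A2, PDGFRA and POSTN were at 0 in PBS replicate 4 and low throughout, with means over the 8 tumors of 0.0295, 0.00438 and 0.0157 FPKM. DCN and THY1, chosen after their values were seen, had means of 0.0209 and 0.0711 FPKM. Of the 12 genes, 6 had a mean of at least 0.5 FPKM. These 6 had positive log2 differences, among them 0.45 (standard error 0.16) for SPARC and, chosen after its values were seen, 0.69 (standard error 0.37) for COL1A1. They were 0.33 and 0.24 without PBS replicate 4, where COL3A1 alone turned negative at -0.04. For 13 genes of smooth muscle cells and pericytes, the sum was 83.8, 90.7, 89.1 and 74.3 FPKM in PBS replicates 1, 2, 3 and 4 and 79.5, 89.8, 88.6 and 87.9 FPKM in gluconate replicates 1, 2, 3 and 4. Within this list the log2 differences went both ways, with 0.29 for MCAM and, for genes chosen after their values were seen, -0.43 for SMTN, -0.29 for ABCC9 and 0.33 for PDGFRB, which were 0.14, -0.44, -0.22 and 0.07 without PBS replicate 4. The most abundant gene was MCAM, an adhesion molecule also found on carcinoma cells, at 39.8 ± 6.79 FPKM (SD, n = 8), 8 of the 13 genes reached 0.5 FPKM, and MYOCD, the smooth muscle co-activator of SRF, was at 0 in at least 6 tumors. Although the sum was lowest in PBS replicate 4, MYH11, chosen after its values were seen, was highest there like ACTG2. MYH11, smooth muscle myosin, was at 0.291 FPKM in that tumor and at 0.0108 to 0.0605 FPKM in the others. LMOD1, chosen in the same way, was at 0.0644 FPKM there and at 0.0168 to 0.0492 FPKM in the others. A value so low in so shallow a library rests on very few fragments, so LMOD1 is not ranked. The part of either cell type in the levels of TAGLN and ACTA2 was not tested. RNA of the mouse host was not separated here from that of the human tumor cells.

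Other cell types were represented as follows. The 6 cardiac genes used, of 8 listed, had a single gene above 0.5 FPKM, TNNT2 at 1.58 ± 0.719 FPKM (SD, n = 8), and MYH6, NPPB and MYL7 were at 0 in at least 6 tumors, while ACTC1 was at 30.1 to 53.7 FPKM in 7 tumors. TNNT2, cardiac troponin T, was at 1.52, 1.60, 0.830 and 0.328 FPKM in PBS replicates 1, 2, 3 and 4 and at 2.67, 1.80, 1.95 and 1.91 FPKM in gluconate replicates 1, 2, 3 and 4. All its gluconate values were above all its PBS values, and like ACTC1 it was lowest in PBS replicate 4. The log2 difference of TNNT2 was 1.08 (standard error 0.40, adjusted p 0.740 from limma), and 0.66 (standard error 0.22) without PBS replicate 4. MYL2, chosen after its values were seen, had a lower mean in gluconate tumors, at 0.0696 ± 0.0401 FPKM (SD, n = 4). In PBS tumors it was at 0.268 ± 0.141 FPKM (SD, n = 4), and at 0.250 ± 0.167 FPKM (SD, n = 3) without PBS replicate 4. The groups overlapped, with 0.127 FPKM in gluconate replicate 1 and 0.0823 FPKM in PBS replicate 2. Values so low rest on few fragments, so MYL2 is not set against TNNT2. TNNI3, chosen in the same way, was at 1.20 FPKM in PBS replicate 4 and at 0.0255 to 0.305 FPKM in the others. In so shallow a library this value also rests on few fragments, so its size is not precise. The part of cardiac muscle RNA in the level of ACTC1 was not tested. The summed FPKM of the cardiac genes was 2.06, 1.71, 1.36 and 1.85 in PBS replicates 1, 2, 3 and 4 and 2.83, 1.89, 2.01 and 2.39 in gluconate replicates 1, 2, 3 and 4. Of the 7 endothelial genes used, 0 reached 0.5 FPKM, ERG being the highest at 0.490 ± 0.186 FPKM (SD, n = 8), and CLDN5 was at 0 in at least 6 tumors. The endothelial sum was 1.00 to 1.36 FPKM in 7 tumors and 0.377 FPKM in PBS replicate 4. Of the 6 myeloid genes used, 2 reached 0.5 FPKM, led by CD68 at 24.7 ± 2.64 FPKM (SD, n = 8), with a sum of 20.8 to 28.9 FPKM in 7 tumors and 27.1 FPKM in PBS replicate 4. Genes of ovarian carcinoma epithelium were abundant, with KRT8 at 846 ± 117 FPKM (SD, n = 8), and 7 of 10 genes above 0.5 FPKM. Their sum was 1808, 2132, 2413 and 1980 FPKM in PBS replicates 1, 2, 3 and 4 and 2017, 1670, 1905 and 2180 FPKM in gluconate replicates 1, 2, 3 and 4. KRT7, a keratin gene of the same list chosen after its values were seen, was at 335, 234, 185 and 124 FPKM in PBS replicates 1, 2, 3 and 4 and at 306, 293, 387 and 393 FPKM in gluconate replicates 1, 2, 3 and 4. As with TAGLN, PBS replicate 1 was the highest and replicate 4 the lowest of the PBS tumors. The log2 difference of KRT7 was 0.73 (standard error 0.26), and 0.48 (standard error 0.19) without PBS replicate 4, whereas that of KRT8 was -0.20 (standard error 0.11). MUC16 was at 0 in at least 6 tumors, and KRT19, MUC16 and CDH1 were at 0 in PBS replicate 4. In the other 7 tumors KRT19 and CDH1 were low as well, at 0 to 0.0357 and at 0.0528 to 0.159 FPKM.

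In order of mean FPKM, the members ran from ACTB over ACTG1, MYL9, TPM1, ACTC1, TAGLN, CNN1, ACTA2 and ACTG2 to ACTA1. ACTB was 1.79 times ACTG1, ACTG1 was 19.5 times MYL9 and TAGLN was 15.9 times CNN1, and at each of these 3 steps the ranges over the 8 tumors were separate. The ranges overlapped for each of the other 6 pairs of neighbors. Without PBS replicate 4 they still overlapped for TPM1 and ACTC1, for ACTC1 and TAGLN, for CNN1 and ACTA2 and for ACTG2 and ACTA1. MYL9 ranked at 679, TPM1 at 1161, ACTC1 at 1821 and TAGLN at 2109 of 24196 genes, whereas CNN1, ACTA2, ACTG2 and ACTA1 ranked at 9819, 11763, 13110 and 15513. A mean of at least 0.5 FPKM was reached by 8 of the 10 members, and by 12486 genes or 51.6% of all. The order depends on the gene lengths behind the FPKM, which the steps of the values showed to be 4260 bases for TAGLN, longer than its longest GENCODE 29 transcript of 3298 bases, and 6330 bases for TPM1, whose longest transcript has 3957 bases.

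As a reference gene, ACTB was of middling steadiness in these tumors and ACTG1 was steadier. Set beside 17 commonly used reference genes, ACTB had a coefficient of variation of FPKM of 7.05% over the 8 tumors, and 7 of the 17 were lower. Without PBS replicate 4 it was 7.46%, and 10 of the 17 were lower. ACTG1 varied by 4.84% over 8 tumors and by 3.98% over 7, with 3 and 1 reference genes lower. The median of the 17 genes was 7.45% over 8 tumors and 6.57% over 7. YWHAZ, a 14-3-3 protein gene, was the steadiest at 2.88% and 2.65%, and B2M, the light chain of MHC class I, varied most at 17.8% and 11.4%. The order depends on the scaling. With median-ratio scaling over 8 tumors, ACTG1 was the lowest of the 19 genes at 5.87%, YWHAZ was at 8.80% and ACTB at 9.20%. GAPDH fell from 17.2% to 8.23% and HPRT1 from 16.7% to 5.43% once PBS replicate 4 was left out. The value of ACTB divided by the median of the 17 genes was 0.946 with all tumors and 0.555 without gluconate replicate 4, the tumor with the most ACTB. Across the 7 tumors, the highest ACTB value was 1.24 times the lowest, and the highest ACTG1 value was 1.13 times the lowest.

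**Figure D5:**
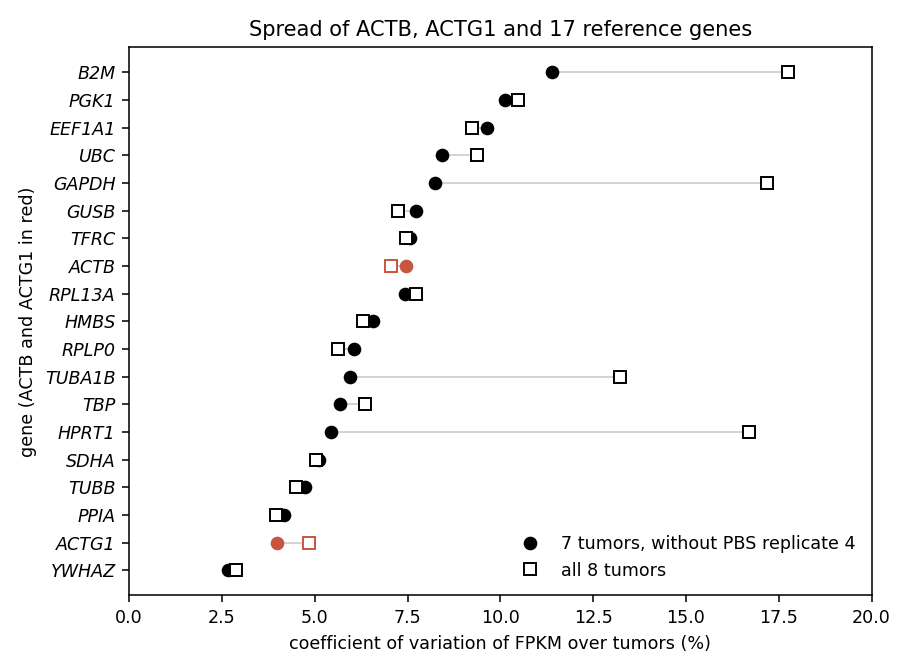
Coefficient of variation of FPKM, in percent, for ACTB and ACTG1 (red) and 17 reference genes (black), over the 7 tumors other than PBS replicate 4 (circles) and over all 8 (squares). ACTG1 is second to YWHAZ over 7 tumors, ACTB lies at 7.46%, and GAPDH, HPRT1, TUBA1B and B2M spread most when PBS replicate 4 is included.

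Across all genes, the comparison of gluconate with PBS tumors gave few calls. With limma on log2(FPKM + 0.1), 0 of 12486 genes (0%) had an adjusted p under 0.05, and the lowest adjusted p was 0.740. At an unadjusted p under 0.05, 577 genes were counted, of which 186 (1.49%) were lower and 391 (3.13%) higher in gluconate tumors. The median log2 difference of all genes was 0.07. Without PBS replicate 4, limma again gave 0 of 12530 genes (0%) with an adjusted p under 0.05, where the lowest was 0.799, and 778 genes at an unadjusted p under 0.05, 421 lower (3.36%) and 357 higher (2.85%), around a median of -0.00. With limma voom on the recovered fragments, 0 genes had an adjusted p under 0.05, and 258 were lower and 336 higher at an unadjusted p under 0.05. Scaling the libraries by median ratios gave 348 lower and 360 higher, so that genes lower made up 49.2% of those counted, against 32.2% with the FPKM as deposited. Single tumors moved these counts by more than 1.5 times. The number of genes lower was 288 without PBS replicate 1, 123 without gluconate replicate 3 and 109 without gluconate replicate 4, and the number higher was 928 without PBS replicate 1, 665 without PBS replicate 2, 165 without gluconate replicate 3 and 158 without gluconate replicate 4.

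The other genes of the actin and myosin machinery were read from 6 lists. Of their 81 genes, 73 were tested, and limma gave 0 with an adjusted p under 0.05. At an unadjusted p under 0.05, 1 of the 73 was lower and 4 were higher, beside the 1.49% and 3.13% of all genes. Their median log2 difference was 0.06, next to 0.07 for all genes tested. Without PBS replicate 4, 2 were lower and 2 higher, beside 3.36% and 2.85%, with a median of 0.02 next to -0.00. By limma voom, 0 had an adjusted p under 0.05 and the same 5 genes had an unadjusted p under 0.05. With median-ratio scaling, 2 genes were counted, FLNC and CALD1, and TPM4, CAPZB, ARPC5 and ACTR1B were not. ACTR1B was also not counted without PBS replicate 3, gluconate replicate 1 or gluconate replicate 3, and FLNC not without PBS replicate 2, PBS replicate 3 or gluconate replicate 4. CAPZB was not counted without PBS replicates 2 or 3 or gluconate replicates 1, 3 or 4. When 1 tumor was left out, TPM4 was counted only without PBS replicate 1 or gluconate replicate 1. In the same fits, ARPC5 was counted only without PBS replicate 1 or gluconate replicate 2. The count of 5 genes was 12 without PBS replicate 1, 1 without PBS replicate 3, 2 without gluconate replicate 1 and 1 each without gluconate replicates 3 and 4. Counts over all genes moved in these fits too. They were 288 lower and 928 higher without PBS replicate 1, and 197 and 304 without PBS replicate 3. Without gluconate replicates 1, 3 and 4 they were 134 and 321, 123 and 165, and 109 and 158.

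Of the genes that work on the filament beside MYL9 and TPM1, the myosins and the paralogs of the members were listed. Among 12 tested genes of non-muscle myosin II and the kinases and phosphatase that switch it, 0 were lower and 0 higher at an unadjusted p under 0.05 in limma, with and without PBS replicate 4 (0 with an adjusted p under 0.05), and the median log2 difference was 0.01. In a list of this size, a count of 0 is near what the 1.49% and 3.13% of all genes would give. MYL12A was counted without PBS replicate 1. The most abundant was MYL6, the essential light chain, at 2071 ± 568 FPKM (SD, n = 4) in PBS and 1974 ± 82.2 FPKM (SD, n = 4) in gluconate tumors. MYL6 was at 2872 FPKM in PBS replicate 4, and PBS tumors without it were at 1804 ± 238 FPKM (SD, n = 3). Its log2 difference was -0.03 with all tumors and turned to 0.14 without PBS replicate 4. The log2 differences ran from -0.24 for PPP1CB, a catalytic subunit of myosin phosphatase, to 0.20 for MYL12A, the regulatory light chain of non-muscle myosin. Without PBS replicate 4, where PPP1CB was at 93.4 FPKM against 42.1 to 51.4 FPKM in the others, its difference turned to 0.02, that of MYL12A was 0.15 and the median of the list was 0.03. Of the 6 tested paralogs of TAGLN, CNN1 and TPM1, TPM4 alone was counted, as higher, with a log2 difference of 0.26 (standard error 0.11), and 0 were counted without PBS replicate 4, where 6 were again tested. TPM4 was at 128 ± 19.9 FPKM (SD, n = 4) in PBS and 152 ± 10.3 FPKM (SD, n = 4) in gluconate tumors. TAGLN2, the paralog of TAGLN found outside muscle, was at 304 ± 29.1 FPKM (SD, n = 4) in PBS and 341 ± 24.3 FPKM (SD, n = 4) in gluconate tumors. CNN3, the acidic calponin, had the most negative log2 difference of the paralogs, -0.04, and the median of the list was 0.13. These became -0.09 and 0.06 without PBS replicate 4.

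Among 13 genes of actin crosslinking and focal adhesion, FLNC was lower at an unadjusted p under 0.05 in limma, with and without PBS replicate 4, and 0 were higher, beside 1.49% lower and 3.13% higher among all genes, or 3.36% and 2.85% without that tumor. FLNC, a filamin best known from muscle, was at 118, 175, 161 and 148 FPKM in PBS replicates 1, 2, 3 and 4 and at 116, 114, 137 and 98.6 FPKM in gluconate replicates 1, 2, 3 and 4. Gluconate replicate 4 was the lowest, and PBS replicate 1 and gluconate replicate 3 made the groups overlap. The log2 difference of FLNC was -0.37 (standard error 0.14), with an adjusted p of 0.740 from limma. CALD1, caldesmon, had the most positive log2 difference of the list at 0.40 (standard error 0.18), which was 0.23 without PBS replicate 4. ZYX, the focal adhesion protein zyxin, was the most abundant, at 291 ± 44.0 FPKM (SD, n = 4) in PBS and 313 ± 19.8 FPKM (SD, n = 4) in gluconate tumors. The median of the 13 was 0.11, and 0.02 without PBS replicate 4.

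Of 26 genes of actin turnover, which nucleate, cap, sever or sequester actin, CAPZB and ARPC5 were higher at an unadjusted p under 0.05 in limma and 0 were lower, beside 3.13% and 1.49% of all genes. CAPZB, a subunit of the capping protein, had a log2 difference of 0.16 (standard error 0.06) and was at 42.3 ± 1.67 FPKM (SD, n = 4) in PBS and 47.2 ± 1.56 FPKM (SD, n = 4) in gluconate tumors. ARPC5, a subunit of the Arp2/3 complex, had a log2 difference of 0.21 (standard error 0.09). Without PBS replicate 4, CAPZB was higher and CAPZA1, the partner subunit of the capping protein, was lower, with a log2 difference of -0.23 (standard error 0.08), beside 2.85% higher and 3.36% lower among all genes. The most abundant gene was TMSB10, which encodes an actin monomer-binding thymosin, at 3608 ± 207 FPKM (SD, n = 4) in PBS and 3763 ± 295 FPKM (SD, n = 4) in gluconate tumors, above the level of ACTB. GSN, the severing protein gelsolin, had a log2 difference of 0.51 (standard error 0.24), which was 0.24 without PBS replicate 4, and CFL2, the muscle cofilin, had -0.29 (standard error 0.19), which was -0.07 without it. The median of the 26 genes was 0.04, and 0.03 without PBS replicate 4.

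SRF and its co-activators gave 0 of 7 tested genes lower and 0 higher at an unadjusted p under 0.05 in limma, with and without PBS replicate 4 (0 with an adjusted p under 0.05), and a median of 0.08, which turned to -0.01 without PBS replicate 4. For this list and the next, counts of 0 or 1 are near what the 1.49% and 3.13% of all genes would give. FHL1 was counted without PBS replicate 2 and SRF without PBS replicate 3. The log2 difference of SRF, named after its values were seen, was -0.53 (standard error 0.30), and -0.17 without PBS replicate 4. FHL2, a LIM protein and SRF cofactor, was the most abundant at 96.6 ± 10.4 FPKM (SD, n = 4) in PBS and 102 ± 7.71 FPKM (SD, n = 4) in gluconate tumors. The log2 differences ran from -0.57 (standard error 0.38) for FHL1 to 0.16 (standard error 0.14) for ELK4, a ternary complex factor. They were -0.15 for FHL1 and 0.03 for ELK4 without PBS replicate 4. FHL1 was at 61.4 FPKM in PBS replicate 4 and at 14.4 to 25.4 FPKM in the others. Of 9 tested genes of actin-like and actin-related proteins, ACTR1B, a subunit of dynactin, was higher at an unadjusted p under 0.05 in limma with and without PBS replicate 4, with a log2 difference of 0.26 (standard error 0.10), and 0 were lower. ACTR1B was at 21.1 ± 2.19 FPKM (SD, n = 4) in PBS and 25.3 ± 2.18 FPKM (SD, n = 4) in gluconate tumors. ACTL6A, a chromatin remodeling subunit, was the most abundant at 64.2 ± 4.91 FPKM (SD, n = 4) in PBS and 61.6 ± 5.53 FPKM (SD, n = 4) in gluconate tumors, and ACTR3B had the most negative log2 difference, -0.13. The median of the 9 genes was 0.10. Both signs turned without PBS replicate 4, to 0.03 for ACTR3B and to -0.02 for the median.

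Since SRF is a known regulator of the set, and TAGLN, MYL9 and TPM1 varied together in the 7 tumors other than PBS replicate 4, the promoters of the members were searched for the CArG box. Windows from 250 bases before to 50 bases after the start were taken from RefSeq on GRCh38.p14, in which 7 of the 10 members were matched, without ACTB, TAGLN and MYL9. The box reads alike on both strands, so the search of 1 strand covered both. It was present in 4 of the 5 actin genes matched, ACTA1, ACTC1, ACTG1 and ACTG2, and in the windows of ACTA2, CNN1 and TPM1 these letters were not found. A gene was counted when any of its windows held the box, whereas the shares over all promoters count each window, so they are not alike. Of all 35116 promoters, 454 or 1.29% held the box, and 8.13% held it with up to 1 other base among the inner 6. That looser form occurred in all 5 actin genes matched, with 2 matches in 1 of the windows of ACTA2, and in neither CNN1 nor TPM1. The 150 bases before the start are shown for the 4 actin genes, 5′ to 3′ on the strand of the gene with the box in capitals, as they place muscle isoforms that differ widely in level beside a cytoplasmic one.
ACTA1 chr1:229434095-229434244 minus strand: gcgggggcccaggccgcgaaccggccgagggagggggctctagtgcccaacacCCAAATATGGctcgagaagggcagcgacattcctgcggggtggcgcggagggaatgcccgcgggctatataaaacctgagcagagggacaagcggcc
ACTC1 chr15:34795550-34795699 minus strand: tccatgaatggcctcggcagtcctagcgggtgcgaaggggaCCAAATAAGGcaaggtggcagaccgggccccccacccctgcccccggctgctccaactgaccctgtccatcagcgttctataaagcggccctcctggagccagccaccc
ACTG1 chr17:81512800-81512949 minus strand: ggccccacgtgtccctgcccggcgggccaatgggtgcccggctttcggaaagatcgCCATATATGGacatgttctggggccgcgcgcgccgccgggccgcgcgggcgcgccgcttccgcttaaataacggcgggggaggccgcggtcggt
ACTG2 chr2:73892858-73893007 plus strand: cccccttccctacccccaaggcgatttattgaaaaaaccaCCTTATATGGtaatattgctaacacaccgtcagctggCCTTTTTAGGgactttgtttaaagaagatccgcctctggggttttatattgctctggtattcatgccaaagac
The box began at base -97 in ACTA1, -109 in ACTC1 and -94 in ACTG1, counted from the start, and ACTG2 held a pair, at -110 and -73. The 4 genes with a box differed widely in level, with means over the 8 tumors of 1699 FPKM for ACTG1, 33.7 FPKM for ACTC1, 0.358 FPKM for ACTG2 and 0.0935 FPKM for ACTA1. A match of letters is a description of the window and not a measured binding site.

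The genes whose values across tumors were most like those of ACTA2 and ACTB were read from all tested genes. Over the 7 tumors other than PBS replicate 4, the 5 genes closest to ACTA2 were HTRA3, TRAM2, PLXNB2, PRSS21 and RIN3, with Pearson's r from 0.984 for HTRA3 to 0.979 for RIN3. HTRA3 was at 0.497 to 2.09 FPKM and PRSS21 at 92.1 to 127 FPKM in these tumors. Genes close to ACTB were RTL8C, TM7SF2, CCDC24 and AGPAT2, with r from 0.987 for RTL8C to 0.958 for AGPAT2. Among the 12485 other genes, 85 reached r of 0.9 with ACTA2 and 79 with ACTB, so with 7 tumors many genes came close. None of these 9 genes belongs to the contractile set or the 6 lists.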

How the data were processed

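The authors deposited FPKM values for 8 tumor libraries, made from polyA-selected RNA read as 150-base pairs, on build GRCh38 according to the submitters' processing notes. The aligner, the counting, its strand setting and the annotation are not given in the sources used here. The table heads its columns C1 to C4 and T1 to T4. C was read as PBS and T as gluconate from the axis of the study's volcano plot, which gives log2(T/C) for gluconate against PBS. The legend of that plot speaks of treated cells, whereas the labels give tumors, and the labels were followed. The 12 libraries of knockout cells and their controls were not analysed here.

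FPKM values of a gene fell on whole multiples of 1 fragment, within 0.05 fragment, for 99.9% of the 156201 values above 0 that were checked. Library depths, gene lengths and fragments were recovered from these steps. PBS replicate 4 holds 3953206 fragments, so values of low genes are least precise there.

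Group differences were fitted with limma 3.58.1 in R 4.3.3 (lmFit and eBayes with trend) on log2(FPKM + 0.1), unpaired and two-sided, over genes with 0.5 FPKM or more on average and with Benjamini-Hochberg adjustment. The pseudocount of 0.1 understates differences of low genes. The scripts were tested on simulated data. The members and all gene lists were chosen with earlier results of these data known. Named genes are all members, from each list the most abundant gene, those with the most positive and most negative log2 difference and any at an unadjusted p under 0.05, the reference genes, the 5 genes most like ACTA2 and ACTB (1 is not reported here), and from each marker list the top gene and genes at 0. Others were named after their values were seen, among them MYH1, MYH4 and MYH7 by fragments. Alternatives were pseudocounts of 1 and 0.01, no filter, a mean FPKM of 1, median-ratio and quantile scaling, leaving out each library, the replicate number as a block, and voom on recovered fragments. Sequences were matched with Python 3.11.15 and Biopython 1.88, values were computed with pandas 2.3.3, scipy 1.17.1 and numpy 2.4.6 and drawn with matplotlib 3.10.9.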

Additional observations from a re-analysis of the deposited data

Results flagged for a closer look

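In 22 quantities, in each treatment group, a tumor was listed here when its gap to the nearest of the other 3 was a large part of the range of the 4, by Dixon's criterion. Of 44 groups, 6 met it, where chance gives about 1 in 20. The members were chosen with these values in view and PBS replicate 4 was already known to stand apart, so the listing is a description and no test of them. The sum of the muscle actins is nearly all ACTC1, so both values show the same departure. In PBS replicate 4, 5 quantities were listed. Its library held 3953206 fragments, against 39895393 to 46551535 in the other PBS tumors. It had 15514 genes above 0, against 20014 to 20117. Its ACTC1 was at 5.86 FPKM, against 33.8 to 35.7 FPKM, and the 4 muscle actins together were at 7.68 FPKM, against 34.9 to 36.7 FPKM. ACTG2, in contrast, was at 1.69 FPKM, against 0.146 to 0.384 FPKM in the other PBS tumors. Among the gluconate tumors, replicate 4 stood apart with a summed FPKM of 2.82 over the skeletal muscle genes, against 0.311 to 0.612 in the other 3. The causes were not tested.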

How the results depend on the processing

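The number of genes with an adjusted p under 0.05 in limma was 0 in all 16 alternatives, voom included, beside 186 genes lower and 391 higher at an unadjusted p under 0.05 (258 and 336 with voom). Those counts moved. Without a filter on low values, 281 genes were lower and 747 higher, as more genes were tested. Genes lower numbered 348 with median-ratio scaling and 353 with quantile scaling. Leaving out 1 tumor at a time gave 109 to 421 genes lower and 158 to 928 higher. The 5 other actin and contractile genes at an unadjusted p under 0.05 became 2 with median-ratio scaling and 1 to 12 when 1 tumor was left out. Except for the filter, the cause was not tested. The spread of ACTB, as a ratio to the median of the reference genes, was 0.946, and 0.555 to 1.14 when 1 tumor was left out.

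Replicate numbers did not pair the tumors. The deviations of same-numbered tumors from their group means correlated at -0.18, 0.08, 0.17 and -0.06, and 2 of the 4 PBS tumors correlated best with their own number. With the replicate number as a block, 167 genes were lower, 303 higher and 2 of the other actin and contractile genes were counted.

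The log2 differences of TAGLN and MYL9 were positive in all 16 alternatives, from 0.89 to 1.63 and from 0.39 to 0.64. Those of ACTB, ACTC1 and ACTA2 were positive in every alternative that tested them, with ACTB from 0.00 with median-ratio scaling to 0.11. ACTC1 ran from 0.18 to 1.04 and ACTA2 from 0.05 to 0.88, both lowest without PBS replicate 4. The sign turned for ACTG1 in 3, CNN1 in 2 and TPM1 in 2 alternatives, each a tumor left out. ACTA1 and ACTG2 lie under the filter and were fitted only without it. The depth of PBS replicate 4 limits ACTA1, ACTA2, ACTG2 and CNN1, which rest on 0 to 11 fragments there.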

Other observations

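Genes beyond the rule for naming, chosen after their values were seen, also stood apart in PBS replicate 4. SRF itself was at 35.5 FPKM in that tumor and at 10.4 to 14.1 FPKM in the other 7. POTEF, an actin-like gene, was at 1.03 FPKM there, against 0.0623 to 0.190 FPKM in the others. In the same tumor, TAGLN was 4.71 times below and TPM1 1.82 times above the median of the others. The part of SRF in these levels was not tested. MYH2 and NEB, further skeletal muscle genes chosen after their values were seen, had 140 and 76 fragments in PBS replicate 1 and 102 and 150 in gluconate replicate 4, and at most 8 and 7 in any other tumor. Among the 75 matched genes of the 6 lists, 9 held a CArG box in at least 1 RefSeq promoter window. They were MYLK, ROCK2, TPM4, CNN2, ACTN1, FLNA, SRF, FHL1 and FHL2. Of all promoter windows 1.29% held the box, which is a share of windows and not of genes. In limma with all tumors, TPM4 was the sole gene of these 9 with an unadjusted p under 0.05. Among all genes, 1.49% were lower and 3.13% higher, and a count of 1 in so short a list is near that. TPM4 was not counted without PBS replicate 4 or with median-ratio scaling. FLNA was counted without PBS replicate 1, FHL1 without PBS replicate 2 and SRF without PBS replicate 3.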
